A study of Mus musculus with 16 samples.

Results

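The let-7 and miR-98 family was examined in prefrontal cortex of 16 mice by small RNA sequencing, with 8 PS19+/- and 8 wild-type (WT) animals. Members were taken by name as the 5p arms mmu-let-7a-5p, mmu-let-7b-5p, mmu-let-7c-5p, mmu-let-7d-5p, mmu-let-7e-5p, mmu-let-7f-5p, mmu-let-7g-5p, mmu-let-7i-5p and mmu-miR-98-5p (each called by its short name from here on), which gave 9 features of 1241 mature miRNAs and 18488 non-coding RNA features in all. PS19 mice were heterozygous for a human MAPT transgene carrying the P301S mutation of tau, a microtubule-binding protein, driven by the murine prion promoter (Prnp). WT mice were littermates without the transgene, on the same mixed background from C57BL/6 and C3H. Animals of both groups were in the tenth month of life, received no treatment in the comparison, and comprised equal numbers of males and females, with sex per library not used here. The prion promoter expresses the transgene widely in the brain. The libraries came from bulk tissue, in which fewer cells of a type and less RNA per cell cannot be told apart.

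The let-7 family is among the most conserved groups of animal miRNAs. A precursor hairpin is cut by Drosha and then Dicer, its 5p strand is loaded into Argonaute, and bases 2 to 8 of that strand, the seed, pair with target mRNAs and lower their translation and stability. The RNA-binding protein Lin28 blocks maturation of let-7 precursors in early embryos and stem cells, and mature let-7 accumulates as neurons differentiate, so the adult brain is known to be rich in it. Since members share a seed, they are expected to bind overlapping targets, and they differ mainly in genomic origin and in the bases outside the seed.

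The 9 mature sequences are shown to make visible how little separates the members, since each of the comparisons depends on telling them apart. They were taken from RefSeq (GRCm38.p6) and all 9 names were matched. Capitals mark the seed.
let-7a-5p: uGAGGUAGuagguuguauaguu
let-7b-5p: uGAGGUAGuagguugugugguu
let-7c-5p: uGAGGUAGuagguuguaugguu
let-7d-5p: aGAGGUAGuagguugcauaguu
let-7e-5p: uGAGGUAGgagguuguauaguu
let-7f-5p: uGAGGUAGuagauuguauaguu
let-7g-5p: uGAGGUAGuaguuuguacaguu
let-7i-5p: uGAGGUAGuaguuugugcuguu
miR-98-5p: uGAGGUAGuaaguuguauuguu

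All 9 members were 22 bases long in the reference. The lengths of the counted reads, and how readily each sequence was ligated and amplified, were not measured here, so the order of levels is an order of counts. The seed GAGGUAG was held by 11 of the 1679 mature names in the reference table, the other two being let-7k and miR-1961. Relative to let-7a-5p, counting from 1 at the 5′ end, let-7c carried A19G, let-7e U9G and let-7f G12A. The other members differed at more positions, namely let-7b at A17G and A19G, let-7d at U1A and U16C, let-7g at G12U and U18C, miR-98 at G11A and A19U, and let-7i at G12U, A17G, U18C and A19U. Over the 36 pairs of members the number of differing bases ranged from 1 to 6, and 4 pairs differed by a single base. A read with an error at such a position can be listed under another member.

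The members came from separate chromosomes and from shared transcripts. On GRCm38, let-7d (chr13:48536078-48536099), let-7f-1 (chr13:48537889-48537910) and let-7a-1 (chr13:48538239-48538260) lay on the minus strand in an exon of the lincRNA 6720427I07Rik, per GENCODE. let-7c-2 (chr15:85706616-85706637) and let-7b (chr15:85707325-85707346) lay on the plus strand in an exon of Lncppara. let-7c-1 (chr16:77599672-77599693) was intronic in Mir99ahg, and let-7e (chr17:17830366-17830387) was intronic in Spaca6. let-7f-2 (chrX:151912353-151912374) and miR-98 (chrX:151913229-151913250) were intronic in Huwe1, let-7g (chr9:106178846-106178867) in Wdr82, and let-7i (chr10:122985698-122985719) was exonic in D630033A02Rik on the minus strand. let-7c and let-7f each had listed loci on different chromosomes that give the same mature sequence, so their rows pool these origins. The files also name let-7a-2, a further gene of let-7a whose position was not used here, so the let-7a row is not that of the chromosome 13 copy alone.

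Amounts are given in k (1000) or M (1000 k). Reads per library ranged from 13.2 to 23.1 M, of which 2.64 to 7.38 M were mature miRNA reads and 1.23 to 3.45 M were assigned to the 9 members. Values are given as normalized counts, that is, reads divided by a size factor for the library. The first letter of the library codes was G for all 8 PS19 libraries, and for WT it was F in 4, G in 2 and A in 2. Its meaning was not given in the sources used here, and for WT libraries coded A or F it cannot be told apart from genotype.

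The 9 members together made up between 41.6% and 51.0% of the mature miRNA signal in each library. Their sum was 1.99 ± 0.735 M normalized counts in PS19 (SD, n = 8) and 2.02 ± 0.712 M in WT (SD, n = 8). PS19 libraries ranged from 1.20 to 3.04 M with a median of 1.82 M, and WT libraries from 1.07 to 3.07 M with a median of 1.94 M. The groups overlapped over nearly their whole range, and in PS19 the 4 highest sums were those of replicates 1, 2, 3 and 4. The family made up 45.7% ± 2.61 of all mature miRNA signal in PS19 (SD, n = 8) and 44.9% ± 2.19 in WT (SD, n = 8). The lowest share was 41.6% in WT replicate 2 and the highest 51.0% in PS19 replicate 8. The difference of 0.730 percentage points was smaller than the SD of either group. Among G-coded libraries it was 2.91 points, larger than either SD, with the 2 WT libraries of that code (replicates 2 and 4) at 41.6% and 43.97%. Of all annotated signal, the members held 11.4% ± 2.20 in PS19 (SD, n = 8) and 11.5% ± 2.66 in WT (SD, n = 8). All mature miRNAs together held 25.0% ± 5.31 and 25.8% ± 6.11, respectively (SD, n = 8 each). No p-value is given for these sums, which are descriptions.

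**Figure D1:**
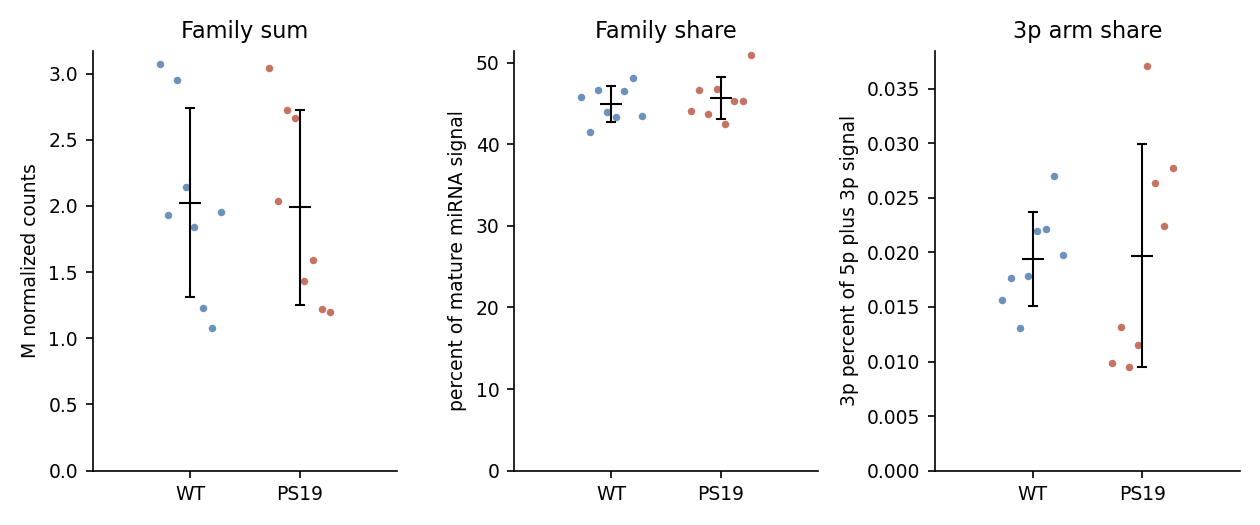
Sum of the 9 members in M normalized counts, their percent of the mature miRNA signal, and the 3p percent of the family's 5p plus 3p signal, per library and genotype (points, 1 per library; bars, mean ± SD, n = 8). The 2 genotypes overlap in each panel, and the share of the mature miRNA signal stays between 41.6% and 51.0% while the sum ranges from 1.07 to 3.07 M.

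By the mean over the 16 libraries, let-7c-5p was the most abundant of all mature miRNAs, at 628 ± 172 k normalized counts (SD). let-7f-5p ranked second among mature miRNAs at 550.5 ± 261 k. By genotype these ranks changed. In WT the mean of let-7f-5p (613 k) lay above that of let-7c-5p (579 k). In PS19 miR-128-3p (506 k) lay above let-7f-5p (488 k). let-7a-5p reached 300.7 ± 125 k and let-7i-5p 260.4 ± 109 k, the fourth and the sixth of all mature miRNAs. These 4 members held 86.5% ± 0.994 of the family signal (SD, n = 16). let-7g-5p followed at 110.01 ± 54.4 k and let-7b-5p at 91.0 ± 19.8 k. let-7d-5p lay at 43.1 ± 16.6 k, let-7e-5p at 19.2 ± 7.56 k and miR-98-5p at 3.88 ± 1.57 k. The least abundant member thus still ranked 74 among mature miRNAs.

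Neighbours in this order were separated unevenly. let-7f exceeded let-7a in 16 of 16 libraries, by 0.83 ± 0.32 on the log2 scale (SD). The steps from let-7i to let-7g, let-7b to let-7d, let-7d to let-7e and let-7e to miR-98 also had 1 direction in all 16 libraries, with mean log2 differences of 1.28, 1.14, 1.18 and 2.33. let-7a exceeded let-7i in 13 libraries, by 0.22 ± 0.25, and let-7g exceeded let-7b in 9 libraries, by 0.14 ± 0.63. let-7c exceeded let-7f in 11 libraries, by 0.31 ± 0.58. These 3 mean differences were smaller than their SD over libraries. Their unadjusted two-sided exact sign-flip p-values were 0.00336 for let-7a over let-7i, 0.388 for let-7g over let-7b and 0.0513 for let-7c over let-7f. They were among 8 neighbouring pairs ordered by the same values, so the p-values only describe that order. let-7c and let-7f were ordered in the same way in all 8 PS19 libraries, whereas let-7c was above let-7f in 3 of 8 WT libraries. For let-7g over let-7b it was 3 of 8 PS19 and 6 of 8 WT libraries.

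**Figure D2:**
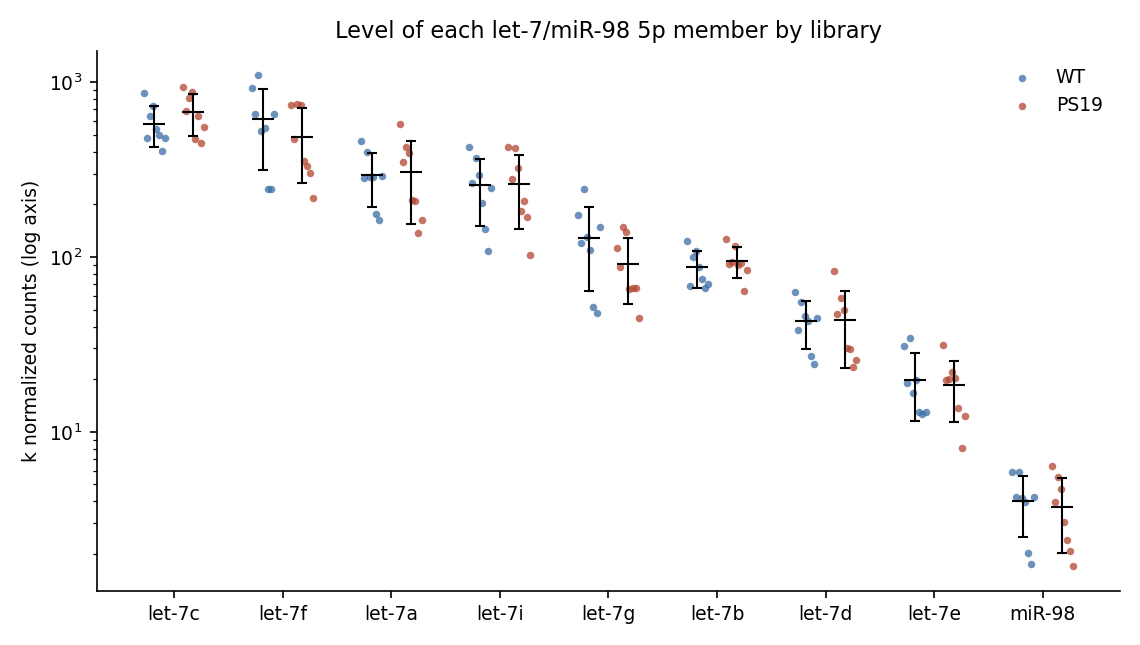
Level of each member in k normalized counts on a log axis, by library and genotype (points, 1 per library, spread sideways only to separate them; bars, mean ± SD, n = 8). Members are ordered by mean level, from let-7c at 628 k to miR-98 at 3.88 k, and the genotypes overlap for every member.

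Between genotypes, 0 of the 9 members passed a test of their level. In limma on log2(value + 1), fitted over 6024 features with a mean of at least 5, 0 of 9 members passed an adjusted p-value of 0.05 and 0 of 9 an unadjusted one. Of all 6024 features, 241 (4.0%) passed the unadjusted threshold, among them 15 of 521 mature miRNAs (2.88%), and 0 (0%) passed the adjusted one. On the recovered reads, edgeR called 0 and DESeq2 15 of all features after adjustment, with no member among them. The median log2 difference was -0.041 over the members, -0.13 over all mature miRNAs tested and -0.022 over all features tested, and 3 of 9 members had a positive sign.

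let-7g, the member encoded inside Wdr82, had the largest difference on this scale. Its level in PS19 ranged from 44.6 to 148 k normalized counts with a median of 77.6 k, and in WT from 47.8 to 245 k with a median of 125 k. WT libraries reached higher, but 2 of 8 PS19 libraries lay above the WT median and the ranges overlapped. The log2 difference, PS19 minus WT, was -0.42 ± 0.32 (SE; 95% confidence interval -1.07 to 0.24; exact permutation p = 0.263, limma adjusted p = 0.9998). let-7f, produced from chromosomes 13 and X, ranged from 217 to 746 k in PS19 (median 415 k) and from 245 to 1096 k in WT (median 601 k). Its log2 difference was -0.29 ± 0.32 (SE; exact permutation p = 0.433, limma adjusted p = 0.9998), with an interval of -0.96 to 0.37.

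let-7c and let-7b had differences of the opposite sign that also missed the threshold. let-7b and the let-7c-2 copy lie in Lncppara, while the let-7c row also pools the chromosome 16 copy. let-7c ranged from 448 to 941 k in PS19 (median 662 k) and from 405 to 862 k in WT (median 518 k), a log2 difference of 0.22 ± 0.19 (SE; exact permutation p = 0.267, limma adjusted p = 0.9998). let-7b ranged from 64.3 to 126 k in PS19 (median 91.9 k) and from 66.1 to 123 k in WT (median 80.9 k), with a difference of 0.13 ± 0.18 (SE; exact permutation p = 0.420, limma adjusted p = 0.9998). Of the PS19 libraries, 6 lay above the WT median for let-7c and 7 for let-7b. The remaining 5 members had log2 differences from -0.14 ± 0.30 for miR-98 to 0.014 ± 0.30 for let-7i (exact permutation p from 0.682 to 0.975). For let-7a the interval ran from -0.60 to 0.58, and these data therefore do not separate no change from changes of that size.

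**Figure D3:**
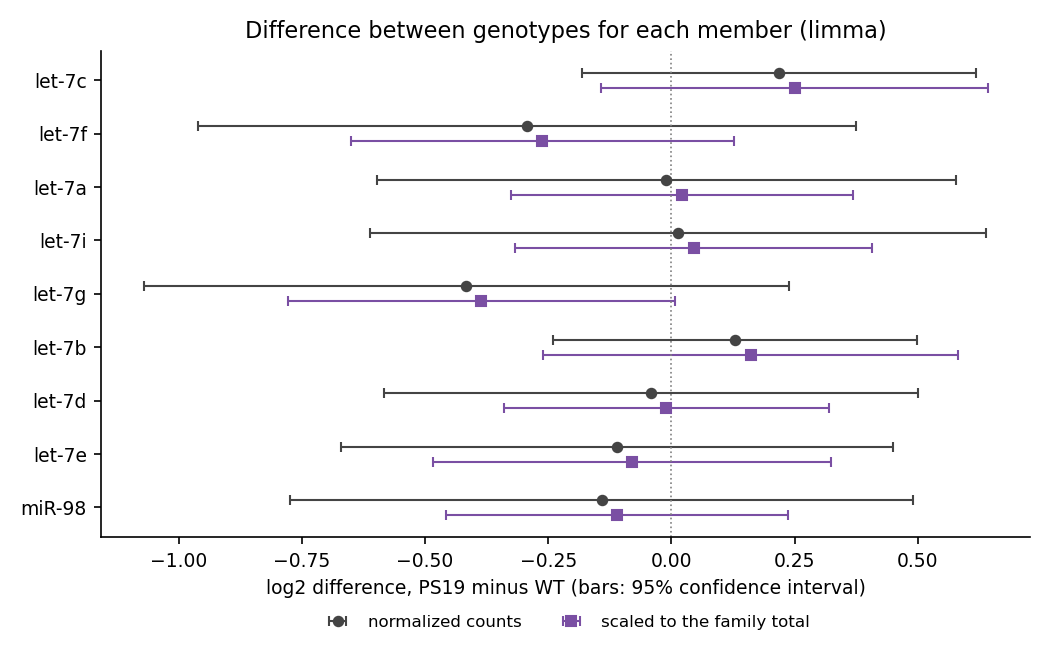
Log2 difference, PS19 minus WT, of each member from limma on normalized counts (circles) and on reads scaled to the family total (squares), with 95% confidence intervals (n = 8 per genotype). All 18 intervals include 0, and that of let-7g on the family scale, from -0.78 to 0.0064, comes closest to leaving it out.

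Sums that vary as widely among libraries as these can hide shifts between members. Each member was therefore also expressed as its share of the family signal in the same library. Since the 9 shares add to 100%, they are not independent, and a lower share of a member means a higher share of others. let-7g made up 3.70% to 5.49% of the family in PS19 (median 4.47%) and 4.20% to 8.31% in WT (median 6.02%). All 8 PS19 libraries lay below the WT median, and the means were 4.58% ± 0.731 and 6.06% ± 1.40 (SD, n = 8 each). The difference was -1.48 percentage points (two-sided exact permutation test over 12870 splits, unadjusted p = 0.0177). This was 1 of 9 shares compared, and the adjustment planned over these shares is not given. In limma on reads scaled to the family total, where 116 of 6024 features (1.93%) passed the unadjusted threshold, let-7g had a log2 difference of -0.39 ± 0.19 (SE; limma adjusted p = 0.99996) and 0 of 9 members passed either threshold. The lower let-7g share is thus a difference at an unadjusted p-value in the single test and missed the threshold in the fit over all features.

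The same values were read within the libraries coded G, where both genotypes occur. The 2 WT libraries had let-7g shares of 6.06% and 6.23%, above all 8 PS19 libraries, whose highest was 5.49% (two-sided exact permutation test, p = 0.0222, the smallest that 45 splits allow). The WT libraries with low let-7g shares were replicates 6 and 7, at 4.20% and 4.44%, inside the PS19 range. The highest let-7g share, 8.31%, was that of WT replicate 3.

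let-7f and let-7c had larger differences in percentage points than let-7g, of -5.09 and 5.26 points, and the next lowest exact permutation p-values. let-7f held 18.1% to 27.8% of the family in PS19 (median 24.5%) and 19.9% to 37.2% in WT (median 29.9%). All 8 PS19 libraries were again below the WT median, with means of 23.9% ± 3.22 and 29.0% ± 6.05 (SD, n = 8 each; two-sided exact permutation test, p = 0.0547). With 1 library left out, the p-value for let-7f ranged from 0.0131 (without WT replicate 6) to 0.111 (without WT replicate 3) and was under 0.05 in 5 of 16 cases, namely without WT replicates 4, 6 or 7 or PS19 replicates 3 or 4 (exact permutation tests). In G-coded libraries it was 0.156 (exact permutation test). let-7c held 29.7% to 45.9% in PS19 (median 33.2%) and 21.8% to 40.4% in WT (median 28.7%). All 8 PS19 libraries lay above the WT median, with means of 35.3% ± 5.38 and 30.1% ± 6.71 (SD, n = 8 each; two-sided exact permutation test, p = 0.105). With 1 library left out, this p-value ranged from 0.0340 (without WT replicate 6, the highest let-7c share of the WT group) to 0.206 (without PS19 replicate 8, where the difference was 3.75 points), and was under 0.05 in 1 of 16 cases (exact permutation tests). The other 6 members had exact permutation p-values from 0.285 to 0.969 for their shares.

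**Figure D4:**
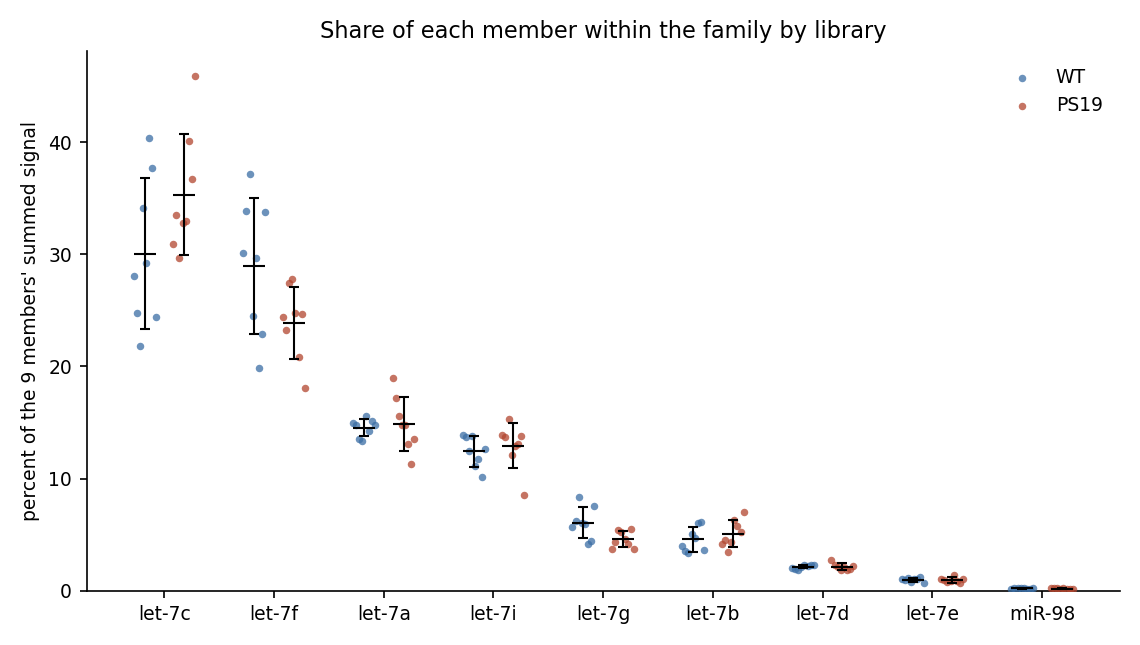
Share of each member in the summed signal of the 9 members, in percent, by library and genotype (points, 1 per library; bars, mean ± SD, n = 8). The PS19 libraries sit higher for let-7c (mean 35.3% against 30.1%) and lower for let-7f (23.9% against 29.0%) and let-7g (4.58% against 6.06%), with overlapping ranges.

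The members did not vary independently across the 16 libraries. For each of the 36 pairs, the SD of the log2 ratio over libraries was taken, as this removes the depth they share. The tightest pair was let-7a and let-7d, with an SD of 0.12; the let-7a-1 copy lies in the same lincRNA as let-7d. let-7b and let-7c, of which the let-7c-2 copy lies beside let-7b in Lncppara, came next at 0.16, and let-7f and let-7g, with no listed locus on a shared chromosome, had the same rounded value of 0.16. let-7a and let-7f, which differ by 1 base and each have a copy in the chromosome 13 lincRNA, had an SD of 0.32. miR-98 had an SD of 0.19 with each of let-7a, let-7i and let-7f, the last of which has a copy beside it in Huwe1.

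The widest pairs set let-7b or let-7c against let-7f or let-7g, with SDs from 0.58 to 0.63. The log2 ratio of let-7b to let-7g ranged from -1.30 in WT replicate 3 to 0.91 in PS19 replicate 8. Together let-7b and let-7c held 25.2% to 52.9% of the family, and let-7f with let-7g 21.8% to 45.5%, with the same pair of libraries at opposite ends. let-7b held 10 G or C bases, let-7c 9, let-7g 8 and let-7f 7. Of the other members, let-7d, let-7e and let-7i held 9, let-7a 8 and miR-98 7, so that members also differed in base composition. Its part in these ratios was not tested.

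**Figure D5:**
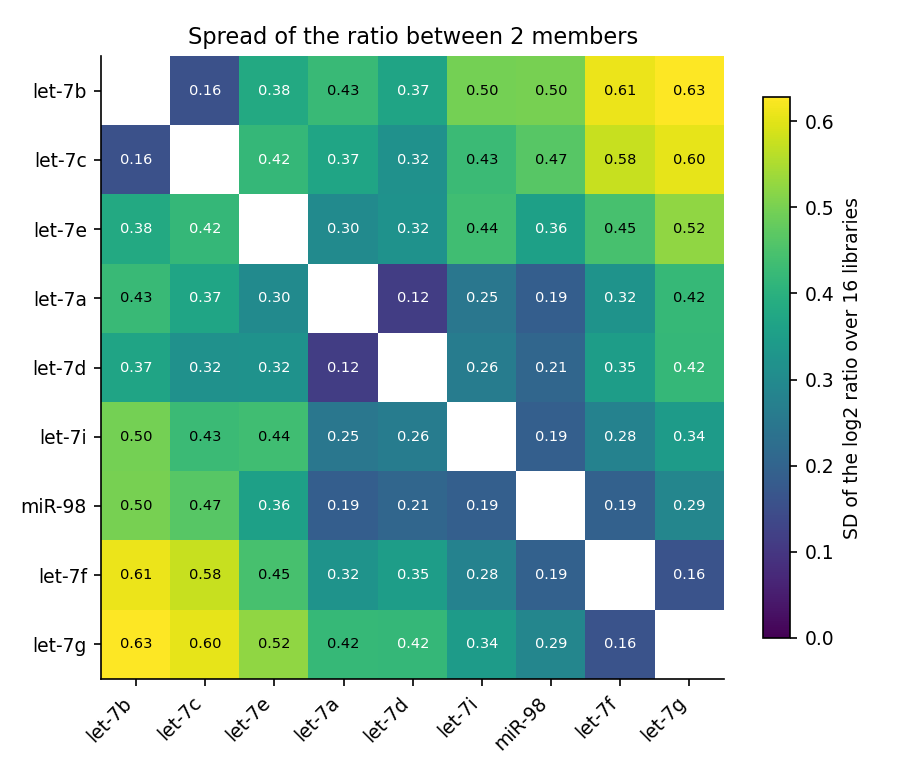
SD of the log2 ratio between each pair of members over the 16 libraries (colour and number; blank on the diagonal). Low values mark let-7a with let-7d (0.12), let-7b with let-7c (0.16) and let-7f with let-7g (0.16), and the highest mark let-7b against let-7g (0.63).

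The range of levels also differed by member. let-7b varied 1.96-fold and let-7c 2.32-fold between the lowest and the highest library. let-7g varied 5.50-fold and let-7f 5.05-fold over the same libraries, and the other members lay between 3.53-fold and 4.25-fold. As shares of the family, no member varied more than 2.25-fold.

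The 3p strands, which are mostly degraded after Argonaute loading, were rare. All 12 3p features of the family were listed, and together they made up 0.0197% ± 0.0102 of the 5p plus 3p signal in PS19 (SD, n = 8) and 0.0194% ± 0.00433 in WT (SD, n = 8). PS19 libraries ranged from 0.00946% to 0.0371%, beyond the WT range of 0.0131% to 0.0270% at both ends. let-7d-3p was the most abundant 3p strand, at 210.2 ± 102 normalized counts in PS19 and 220.1 ± 24.3 in WT (SD, n = 8 each), followed by let-7e-3p at 50.2 ± 14.4 and 54.6 ± 23.8. let-7a-2-3p and let-7g-3p had no read in 11 of 16 libraries and at most 3 and 4 reads in any. The 3p rows of let-7a-1 and let-7c-2 have an identical mature sequence, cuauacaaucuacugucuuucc, had equal reads in 8 libraries and differed by at most 3 reads in the others, so they are 1 measurement listed under 2 names.

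let-7f-1-3p, the passenger strand of the let-7f copy on chromosome 13, was read at few counts. Its mean was 3.09 in PS19 and 7.15 in WT, so it reached the filter's mean of 5 only through WT, and its difference is given as a description. It ranged from 0 to 4.92 normalized counts in PS19 (median 3.54) and from 2.0 to 12.1 in WT (median 6.77), with all 8 PS19 libraries below the WT median. The log2 difference was -1.02 ± 0.40 (SE; limma adjusted p = 0.9998). The library with the most reads of it had 14, and the value is on the log2(value + 1) scale, which understates low features. The difference was -0.56 with a pseudocount of 5 and -1.19 with one of 0.5. With the library code letter as a term the difference was -0.93 ± 0.62 (SE). The corresponding strand from chromosome X, let-7f-2-3p, had a log2 difference of 0.070 ± 0.52 (SE; exact permutation p = 0.903).

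Rows named without an arm, which may hold hairpin or unassigned reads, had far lower values than the 5p members. They include let-7j and let-7k, which the reference lists as mature sequences, and let-7k is given again below with its seed. Of 14 rows without an arm, 13 passed the filter and 0 were called at an unadjusted p-value in limma. They had 9 positive and 4 negative signs and a median log2 difference of 0.018. The largest of these were let-7c-1 at 846 ± 228 and let-7c-2 at 721.7 ± 215 normalized counts in WT (SD, n = 8), with log2 differences of 0.31 ± 0.20 and 0.31 ± 0.21 (SE; limma adjusted p = 0.9998 for both). The let-7g row had a log2 difference of -0.33 ± 0.33 (SE; limma adjusted p = 0.9998). These signs were those of the let-7c and let-7g 5p strands, whose reads they may share. The let-7b, let-7e and let-7f-2 rows also had the sign of their 5p strands. The let-7i row had the largest difference, 0.51 ± 0.37 (SE), against 0.014 for let-7i-5p. Rows of let-7a-1 (0.12), let-7a-2 (0.018), let-7d (0.0095) and let-7f-1 (0.010) were positive, while their 5p strands were negative.

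miRNAs transcribed beside let-7 genes were read beside the members. miR-99a lies near let-7c-1, and miR-99b and miR-125a lie near let-7e. miR-100 and miR-125b, of the same miRNA families, were read with them. Of 11 arms listed, 9 passed the filter, 0 were called at an unadjusted p-value in limma, and the median log2 difference was 0.0075, with a range from -0.17 to 0.18. miR-99a-5p was at 70.2 ± 26.1 k in PS19 and 66.5 ± 21.6 k in WT (SD, n = 8 each; log2 difference 0.072 ± 0.25, SE). miR-125a-5p was at 32.8 ± 13.8 and 34.8 ± 8.45 k (log2 difference -0.15 ± 0.23, SE). The other 2 miRNAs with the let-7 seed were scarce, with let-7k at a mean of 64.6 and miR-1961 at 170.5 normalized counts, and had log2 differences of 0.091 ± 0.33 and -0.089 ± 0.36 (SE).

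Among 133 mature miRNAs with a mean of at least 500, leaving out the family's own arms, the miR-99, miR-100 and miR-125 arms and others with the let-7 seed, those most like the family across the 16 libraries were miR-541-5p (Pearson r = 0.947 with the mean centred log2 level of the 9 members), miR-1843a-5p (0.944), miR-300-3p (0.942), miR-127-3p (0.940) and miR-330-5p (0.937). The median r over all 133 was 0.811, and all share library depth and scaling, so the order is a description. A circular RNA row, mmu_circ_0016169, followed let-7f-5p in every library and exceeded it by at most 0.639%, with means of 553 and 550.5 k normalized counts. The reads of let-7f-5p are therefore listed in the table under both names, and this enters every share of all annotated signal.

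Markers of cell types were read beside these results. Neuronal miRNAs (miR-128-3p and miR-9-5p foremost, 5 on the list) were abundant, summing to 295 to 1026 k normalized counts in PS19 and 342 to 953 k in WT. Sums for oligodendrocyte miRNAs (2) were 18.5 to 52.3 k in PS19 and 13.4 to 46.5 k in WT, and for endothelial miRNAs (2) 5.02 to 28.3 and 5.11 to 27.2 k. Microglial miRNAs (3) summed to 522.2 to 2893 normalized counts in PS19 and 402 to 1463 in WT, choroid plexus miRNAs (2) to 786 to 6772 and 548 to 4317, and red blood cell miRNAs (4) to 731 to 1518 and 653 to 1411. Muscle miRNAs (3) summed to 2253 to 14631 and 2867 to 10689. miR-122-5p of liver was at 138 to 654 and 132 to 387, and olfactory miRNAs (3) summed to 32.5 to 565 and 53.0 to 3175. Single miRNAs carried several of these sums. In PS19 the muscle means were 6317 for miR-1a-3p, 541 for miR-206-3p and 16.2 for miR-133a-3p. Among red blood cell miRNAs the PS19 mean was 962 for miR-486a-5p and 18.0 for miR-451a. The microglial sum was mostly miR-146a-5p, with means of 1388 in PS19 and 1017 in WT. Beside it, miR-223-3p was at 2.62 and 4.71, and miR-142a-3p at 3.75 and 1.02. None of the markers passing the filter was called at an unadjusted p-value in limma, and no marker was at 0 in every library. In WT the highest choroid plexus miR-204-5p value, 4144 normalized counts, was that of replicate 3, the library with the highest let-7g share. The highest value of all, 6592, was that of PS19 replicate 3, whose let-7g share was 5.43%. The part of these cell types in the family shares was not tested.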

How the data were processed

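Small RNA libraries (NEBNext kit, single-end reads) of prefrontal cortex were grouped by the genotype in the labels, and the replicate number comes from the sample titles. Per the study's methods, the authors aligned reads with STAR inside COMPSRA (the submitters' processing notes give STAR 2.5.3a, DESeq2 1.42.1 and mm10) and compared genotypes with DESeq2. The deposited values are a normalized signal, namely counts that the authors divided by 1 size factor per library. Whole reads were recovered by dividing by the smallest value above 0 (100% whole, tolerance 0.01). The read step lay close to 1 in the WT libraries 4 and 6, which makes it less certain there. The deposited log2 fold change, Wald score and p-value of the authors were not used, and 0 columns of per-library values were left out. Reads can be listed under more than 1 feature.

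The 9 members and the marker and neighbour lists were chosen with earlier results of these data known. Besides the members, named features were all 3p and unlabelled rows of the family, miR-99, miR-100 and miR-125 arms, the other miRNAs with the same seed, and the 5 mature miRNAs most like the family. Values were compared as log2(value + 1) for 6024 features with a mean of at least 5 by limma 3.58.1 (lmFit, eBayes with trend, 1 term for genotype; R 4.3.3), with two-sided p-values adjusted by Benjamini-Hochberg over all of them. limma was also run on reads scaled to the family total, an alternative added after the data were seen. Two-sided exact permutation tests were used for member shares and, beside limma, for log2 levels (Python 3.11.15, numpy 2.4.6). Sums over members were only described, although tests had been planned for them. An adjustment over the member shares and over the neighbour pairs had also been planned. Their p-values are given unadjusted. Neighbours in the order of levels were compared by an exact sign-flip test over the 16 libraries. The limma script was tested on simulated counts first. Over the 56 pairs within a group, no 2 libraries agreed within sampling noise. Whether the mice came from separate litters was not given in the sources used here. Alternatives, among them DESeq2 1.42.0 and edgeR 4.0.16, are listed under the dependence on processing.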

Additional observations from a re-analysis of the deposited data

Results flagged for a closer look

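let-7i-5p in PS19 replicate 8 made up 8.50% of the family signal, while the next lowest PS19 library had 12.1%. This gap was 0.527 of the range of the 8 PS19 libraries, just above the critical value of Dixon's test at the 95% level, which marks a library far from the rest of its group. In 44 groups of 8 values examined this was the only such value, and chance alone gives about 1 in 20, or 2.2. The same library had the highest let-7c share, 45.9%, and the lowest let-7f share, 18.1%.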

How the results depend on the processing

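None of the 9 members passed an adjusted or unadjusted p-value of 0.05 under DESeq2 or edgeR (recovered reads), the library or mature miRNA total as scale, a filter of 2 libraries above 0 or of means of at least 20, pseudocounts of 5 or 0.5, array weights, a term for the code letter, a replicate block, or leaving out any of the 16 libraries. Of 261 repeats for single members, 229 kept the sign and 32, all in let-7a, let-7d, let-7e or let-7i, reversed it. The reversed values were at most 0.23 in size, and the smallest p-value was 0.0518 (limma, exact permutation, edgeR and DESeq2 tests together). The log2 difference of let-7a became 0.076 (DESeq2), 0.091 (edgeR), 0.014 (library total) and 0.044 (mature miRNA total, with and without the block), and ranged from -0.16 to 0.13 when 1 library was left out. That of let-7d became 0.027 (DESeq2), 0.040 (edgeR) and 0.013 (mature miRNA total, with and without the block), with a range from -0.19 to 0.067. let-7e ranged from -0.24 to 0.044. let-7i became -0.019 (array weights) and -0.23 (code letter), with a range from -0.15 to 0.19. The cause was not tested.

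Over all features, 15 passed the adjusted threshold in DESeq2 and 0 in the other fits. The count at an unadjusted p-value, 241 of 6024, became 124 with the mature miRNA total and also with the code letter, 680 of 17088 features without the filter, 136 of 2510 with a mean of at least 20 and 418 with array weights. The replicate number was not taken as a pairing, which required every same-number pair to correlate above 0.1. Of 8 such pairs 6 did, with a range from 0.0446 to 0.456 and a mean of 0.210 against -0.030 for other pairs, and 2 of 8 PS19 libraries correlated best with their own number. With it as a block the count was 419, and the exact sign-flip p-value was 0.0391 for the let-7g share and 0.0859 for let-7f. Scaled to the family total and with the block, only let-7g was under an unadjusted limma p-value of 0.05 (-0.39 ± 0.17, SE, 95% interval -0.74 to -0.028), not after adjustment.

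Of the 9 shares, 1 (let-7g) passed an unadjusted exact p-value of 0.05, also as the log2 ratio to the mean of the members (-0.34, exact permutation p = 0.0295). With 1 library left out the count ranged from 1 to 3. let-7g passed each time (exact permutation p from 0.00435 to 0.0367), and its log2 difference scaled to the family total ranged from -0.46 to -0.32, with 4 of 16 fits under an unadjusted limma p-value of 0.05 and none after adjustment. With the code letter as a term it was -0.44 ± 0.27 (SE), not past either threshold. Among uncalled shares, let-7d became 0.031 as a log2 ratio and 0.080 percentage points in G-coded libraries, where let-7e became 0.062 and let-7i -0.82. Left-out ranges were -0.089 to 0.034 points for let-7d and -0.21 to 0.88 for let-7a. With 1 library left out, the difference in family sum ranged from -0.19 to 0.11 M, that in its share of mature miRNA signal from -0.031 to 1.19 points (2.91 in G-coded libraries), and that in the 3p share from -0.0022 to 0.0018 points, each left-out value within the SD of the groups. Counting the shared 3p sequence once, added after the data were seen, gave 0.0006.

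With 8 libraries a group, the 95% intervals of the log2 differences ran from -0.24 to 0.50 for let-7b and from -1.07 to 0.24 for let-7g.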
